A study of Mus musculus with 12 samples.

Results

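The genes described here encode 7 subunits of the GABA-A receptor, *Gabra2*, *Gabra3*, *Gabra4*, *Gabra5*, *Gabrb1*, *Gabrb2* and *Gabrd*. They were taken by symbol as the main hippocampal subunits, and 7 of 7 were found among the 37991 genes with read counts. All 7 passed the filter on low counts, which left 16399 genes to test. The libraries were made from poly(A) RNA of the hippocampi of 12 C57BL/6N mice, 1 library per mouse. Of these, 6 were labelled *Gadd45a*-WT (WT-labelled below) and came from wild-type siblings, and 6 were labelled *Gadd45a*-KO (KO-labelled) and came from *Gadd45a*-/- mice bred from heterozygotes. The deletion was present in the whole animal, and a neomycin cassette took the place of the exons upstream of exon 4, which remained. Every mouse was 6 to 7 months old per its label, although the study's methods give a younger range, and was trained in the passive avoidance (PA) test, in which entry into a dark chamber is followed by a foot shock. Hippocampi were taken 1 h later, and no untrained library was analysed here. The comparison addressed how subunit levels and subunit composition differed between the labels.

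GABA-A receptors are pentameric chloride channels that open when they bind GABA, the main inhibitory transmitter of the adult brain. A receptor usually joins alpha and beta subunits with a gamma or a delta subunit, and this choice sets where the receptor sits, how strongly it binds GABA and which drugs act on it. In the hippocampus, receptors with a gamma subunit mediate fast synaptic inhibition, whereas receptors with alpha5, or with alpha4 and delta, mainly lie outside synapses and carry tonic inhibition.

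Between 44594261 and 55540601 reads per library fell on genes, and 1 read was 0.0180 CPM (reads scaled to library size, with TMM factors) in the deepest library. *Gadd45a* itself had 2.58 CPM on average in the WT-labelled libraries and 21.4 CPM in the KO-labelled ones (log2 fold change 3.06, adjusted p = 1.33e-10 by the quasi-likelihood test of edgeR after Benjamini-Hochberg adjustment, as for every edgeR value below). The reads on the targeted gene thus went against the label, counts per gene do not separate the deleted exons from exon 4, and every direction below is between the labels. Of the reads on genes, with no gene or ambiguous, those with no gene made up 14.41 to 15.78% in the WT-labelled libraries. In the KO-labelled ones they made up 13.03 to 14.26%, without overlap, and their part in the results was not tested. Of 10 thalamus markers, 10 had a higher mean in the KO-labelled libraries, and their summed level was 118 to 173 CPM in the WT-labelled ones and 129 to 594 CPM in the KO-labelled ones. *Gadd45a*-KO replicates 2 and 3 stood apart with 395 and 594 CPM. *Gadd45a*-KO replicate 4 had the lowest sum of 7 dentate granule cell markers, 309.5 CPM, against 434 to 668 CPM in the other libraries. Reads were found on 7 of 7 dentate markers and on 6 of 7 markers of CA1 to CA3 pyramidal cells, *Pou3f1* being at 0 reads in every library. They were also found on 10 of 10 thalamus markers and 6 of 6 choroid plexus markers. The presence of reads therefore does not check the tissue label.

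Per length of exon, *Gabra5* was the most abundant member and *Gabrb1* the least. In the WT-labelled libraries, the levels in CPM per kb of exons were 102 ± 6.71 (SD, n = 6) for *Gabra5*, 59.0 ± 6.13 for *Gabra2*, 35.4 ± 0.980 for *Gabra4* and 26.7 ± 1.21 for *Gabrb2*. They were 10.99 ± 2.63 for *Gabra3*, 10.8 ± 1.26 for *Gabrd* and 6.28 ± 0.774 for *Gabrb1*. Each of these neighbours was separated by non-overlapping ranges except *Gabra3* and *Gabrd*, whose ranges overlapped, and *Gabra3* exceeded *Gabrd* in 2 of 6 libraries. In the KO-labelled libraries, the levels were 98.8 ± 5.30 for *Gabra5*, 51.5 ± 6.97 for *Gabra2*, 35.9 ± 4.78 for *Gabra4* and 21.4 ± 0.581 for *Gabrb2*. *Gabrd* followed with 11.1 ± 2.12, *Gabra3* with 10.5 ± 3.04 and *Gabrb1* with 5.09 ± 0.312. In this group the ranges of *Gabra2* and *Gabra4* also overlapped, although *Gabra2* was the higher in 6 of 6 libraries. The order of the members by level was therefore the same under both labels apart from *Gabra3* and *Gabrd*, whose ranges overlapped under both. With the longest transcript in place of all exons, the ranges of *Gabra4* and *Gabrb2* overlapped as well under both labels.

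As a share of the reads per kb on the 7 members, *Gabra5* took 40.7% ± 2.12 (SD, n = 6) in the WT-labelled libraries and 42.2% ± 2.41 in the KO-labelled ones. *Gabra2* took 23.5% ± 1.45 and 22.0% ± 2.75, and *Gabra4* took 14.1% ± 0.852 and 15.3% ± 2.13. The share of *Gabrb2* was 10.6% ± 0.227 in the WT-labelled libraries and 9.14% ± 0.221 in the KO-labelled ones. The ranges of *Gabrb2* did not overlap, with at least 10.4% under the first label and at most 9.49% under the second, whereas those of the other 6 members did. *Gabrd* took 4.32% ± 0.635 and 4.75% ± 0.940, *Gabra3* took 4.35% ± 0.819 and 4.49% ± 1.25, and *Gabrb1* took 2.49% ± 0.196 and 2.17% ± 0.116. The separation of *Gabrb2* depends on the set taken as the whole, since its ranges overlapped as a share of the beta subunit genes of the family. Shares of one whole cannot move alone, and no test was made of them.

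**Figure D1:**
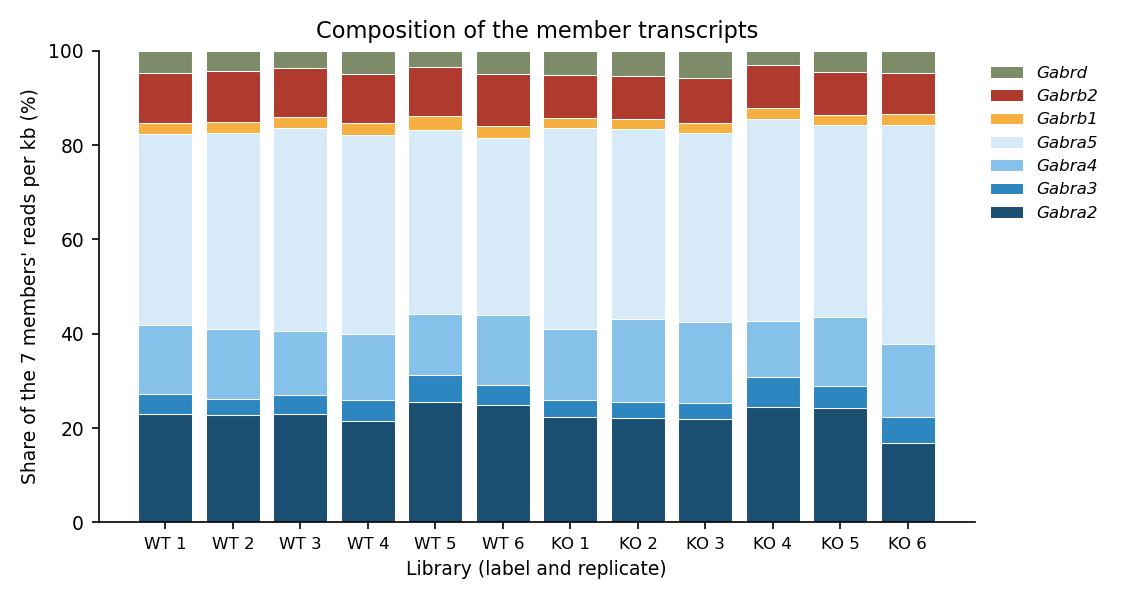
Share of the 7 members' reads per kb of exons (y axis, %) in each of the 12 libraries (x axis, label and replicate), with 1 colour per gene. *Gabra5* holds the largest segment in every library, and the *Gabrb2* segment is at least 10.4% in the bars labelled WT and at most 9.49% in the bars labelled KO.

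At 1% FDR, 1 of the 7 members was lower in the KO-labelled libraries and 0 were higher (edgeR). Over all 16399 genes tested, 2.62% were lower and 0.0244% higher at that threshold. The member that passed was *Gabrb2*, and *Gabrb1* passed at 5% FDR, where 4.43% of all genes were lower. At an unadjusted p under 0.05, 3 members were lower and 0 higher, against 9.35% and 4.34% of all genes. DESeq2 called *Gabrb1* and *Gabrb2* lower and 0 members higher at 1% FDR, where it called 4.13% of 16076 genes lower and 0.124% higher. The median log2 fold change was -0.06 over the members and 0.00 over all genes tested.

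**Figure D2:**
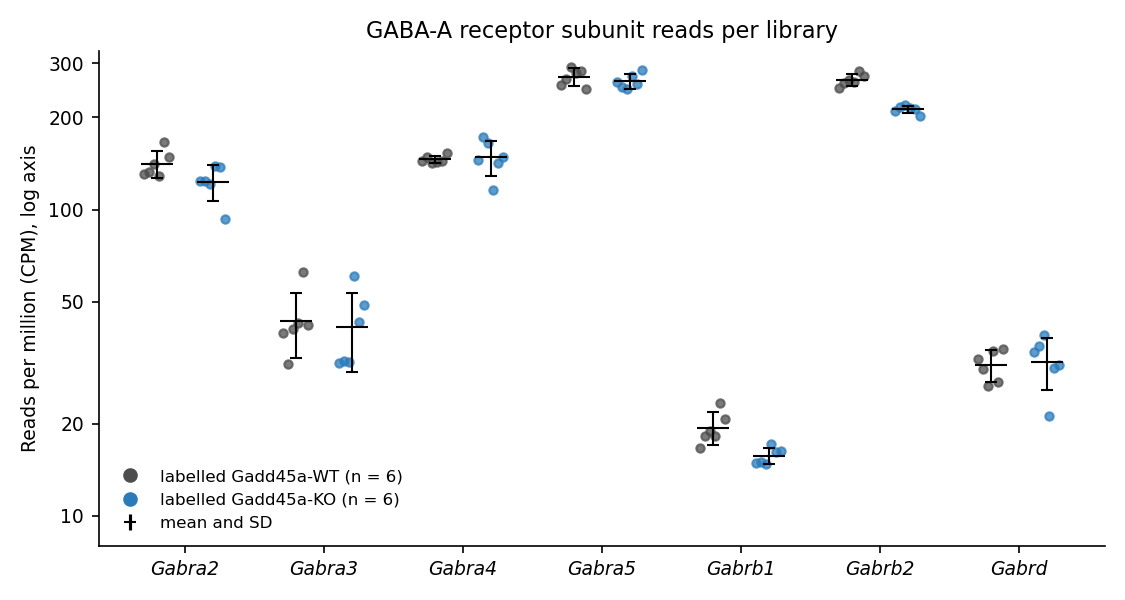
CPM (y axis, log scale) of each member in the 6 WT-labelled libraries (grey) and the 6 KO-labelled ones (blue), with the mean and SD in black. The 2 groups of points are apart for *Gabrb2*, at 249 to 284 and 203 to 219 CPM, and overlap for the other 6 members.

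The beta subunits form, with alpha, the sites where GABA binds, and they are needed for the receptor to reach the surface. *Gabrb2*, which encodes the beta2 subunit, lies on the plus strand of chromosome 11 of NCBIM37 from 42233259 to 42446092. In the WT-labelled libraries it had 249 CPM at the lowest, 262 at the median and 284 at the highest, from 11305 to 14924 reads. In the KO-labelled ones the values were 203, 214 and 219 CPM, from 9847 to 11362 reads. Every KO-labelled library lay below every WT-labelled library, which held for 3.12% of all genes tested. *Gabrb2* was lower by a log2 fold change of -0.32 (SE 0.04, 95% interval -0.39 to -0.24, edgeR adjusted p = 9.83e-05). It ranked 48 by p among all genes tested, and its change was close to the median of -0.34 of the 430 lower genes. In counts per gene from poly(A) RNA of whole tissue, less RNA per cell, fewer cells that hold it and fewer intact transcripts cannot be told apart. For lower genes with long 3′UTRs the paper proposes reduced mRNA stability, which was not tested for *Gabrb2* here. *Gabrb2* stayed lower at 1% FDR in all 24 other fits and in 12 of 12 fits with a library left out, which are among those 24, at log2 fold changes from -0.34 to -0.23.

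*Gabrb1*, which encodes beta1, lies on the plus strand of chromosome 5 from 72091171 to 72529628. It had 16.7, 18.6 and 23.5 CPM at the lowest, median and highest in the WT-labelled libraries, from 758 to 1234 reads. The values were 14.8, 15.6 and 17.2 CPM in the KO-labelled ones, from 683 to 857 reads. Of the 6 KO-labelled libraries, 5 lay below every WT-labelled library, and *Gadd45a*-KO replicate 4 lay within their range. The log2 fold change of -0.30 (SE 0.07, 95% interval -0.46 to -0.15) had about the size of that of *Gabrb2* but did not pass 1% FDR (edgeR adjusted p = 0.0259). DESeq2 gave -0.30 and an adjusted p of 0.00378, which passed. With 1 library left out, *Gabrb1* passed 5% FDR in 5 of 12 fits and 1% FDR in 0 of 12, with adjusted p from 0.0102 to 0.0805 (edgeR).

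The windows around the RefSeq starts of both beta members, and of *Gabra4*, the chromosome 5 neighbour of *Gabrb1* that did not pass, are shown to compare the beta members with a close neighbour. Each runs from 250 bases before to 50 after the start, on the strand of the gene, with CG pairs, the sites of DNA methylation, in capitals. The build is GRCm38.p6, which is not that of the counts. They are chr11:42420190-42420489 (plus) for *Gabrb2*, chr5:71657671-71657970 (plus) for *Gabrb1* and chr5:71658259-71658558 (minus) for *Gabra4*, each being the most upstream start listed.
Gabrb2: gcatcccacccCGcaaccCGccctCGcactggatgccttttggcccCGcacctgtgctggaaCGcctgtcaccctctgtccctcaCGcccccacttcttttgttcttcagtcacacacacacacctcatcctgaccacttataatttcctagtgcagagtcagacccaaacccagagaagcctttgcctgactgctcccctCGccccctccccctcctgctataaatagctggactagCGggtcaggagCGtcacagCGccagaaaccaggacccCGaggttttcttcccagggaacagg
Gabrb1: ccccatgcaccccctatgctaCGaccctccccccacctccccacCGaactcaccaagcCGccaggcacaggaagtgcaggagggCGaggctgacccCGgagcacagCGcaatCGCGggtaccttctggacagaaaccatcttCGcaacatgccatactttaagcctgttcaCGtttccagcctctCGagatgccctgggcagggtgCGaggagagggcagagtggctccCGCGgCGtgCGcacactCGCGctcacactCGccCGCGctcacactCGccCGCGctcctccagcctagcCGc
Gabra4: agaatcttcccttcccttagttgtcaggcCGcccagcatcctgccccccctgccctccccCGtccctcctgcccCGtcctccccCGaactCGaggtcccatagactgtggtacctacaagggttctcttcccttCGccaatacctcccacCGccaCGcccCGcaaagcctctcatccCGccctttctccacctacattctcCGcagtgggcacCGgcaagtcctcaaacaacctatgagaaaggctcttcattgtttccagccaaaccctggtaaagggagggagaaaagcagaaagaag

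The *Gabrb2* window held 11 CG pairs, that of *Gabrb1* 25 and that of *Gabra4* 12. The median was 7, with quartiles of 3 and 20, over 32851 windows of RefSeq. Each other window listed for *Gabrb2* or *Gabrb1*, at a start further downstream, held 9, so the counts of the beta members depend on the start chosen. The printed windows of *Gabrb1* and *Gabra4* were 288 bases apart on opposite strands. By these coordinates each gene is read from its printed start towards that of the other, not away from it. In the annotation used for the counts these 2 genes were 41623 bases apart, so the printed *Gabrb1* start lay upstream of the annotated gene. The letters TGACG, the core of the cyclic AMP response element, occurred once, on the minus strand, in the printed *Gabrb2* window. On either strand they occurred in 0 of the printed windows of *Gabrb1* and *Gabra4*, and in 0 of the other windows listed for *Gabrb2* and *Gabrb1*. They were found in 20.8% of all windows, and TGACGTCA, which contains them, in 1.79% of all windows and in 0 of these. Windows were matched for 6 of the 7 members, and none for *Gabrd*. A match of letters is a description and not a binding site.

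The alpha subunits set much of the pharmacology of the receptor. None of the 4 alpha members passed 1% FDR in edgeR or DESeq2, and 1 of 4, *Gabra2*, had an unadjusted p under 0.05. Their median log2 fold change was -0.06, against 0.00 over all genes tested.

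*Gabra2* encodes alpha2, found at inhibitory synapses on the axon initial segment of pyramidal cells and a target of the anxiolytic action of benzodiazepines. It lies on the minus strand of chromosome 5 from 71352296 to 71487088. It had 128, 137 and 167 CPM at the lowest, median and highest in the WT-labelled libraries and 93.1, 124 and 139 CPM in the KO-labelled ones. The groups overlapped, although 6 of 6 KO-labelled libraries were below the WT-labelled mean and 4 of 6 below its lowest library. The log2 fold change was -0.20 (SE 0.09, 95% interval -0.39 to -0.01, edgeR adjusted p = 0.345). It was -0.12 without *Gadd45a*-KO replicate 6.

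*Gabra3* encodes alpha3 and lies on the minus strand of chromosome X from 69678020 to 69902187. Its values were 31.4, 41.4 and 62.5 CPM in the WT-labelled libraries and 31.5, 37.4 and 60.8 CPM in the KO-labelled ones. Among the members it had the widest spread between libraries, with a coefficient of variation of 23.9% and 28.8%, where counting error at its lowest count was 2.66%. *Gadd45a*-WT replicate 5 and *Gadd45a*-KO replicate 4 were the highest, so that the groups covered nearly the same range. The log2 fold change was -0.06 (SE 0.18, edgeR adjusted p = 0.936), and its 95% interval ran from -0.45 to 0.32, wide enough to hold the change of *Gabrb2*.

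*Gabra4* encodes alpha4, a partner of delta in dentate granule cells and in the thalamus, and lies on the minus strand of chromosome 5 from 71960973 to 72049547. Its values were 142, 144 and 153 CPM in the WT-labelled libraries and 116, 147 and 172 CPM in the KO-labelled ones. The KO-labelled libraries spread to both sides, with replicates 2 and 3 above and replicates 4 and 5 below every WT-labelled library. The log2 fold change was 0.02 (SE 0.07, 95% interval -0.13 to 0.18, edgeR adjusted p = 0.944).

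*Gabra5* encodes alpha5, which is concentrated in the hippocampus and linked to learning, and lies on the minus strand of chromosome 7 from 64663060 to 64765379. Its values were 248, 273 and 293 CPM in the WT-labelled libraries and 247, 259 and 285 CPM in the KO-labelled ones, with overlap. The log2 fold change was -0.05 (SE 0.05, edgeR adjusted p = 0.763). Its 95% interval, -0.15 to 0.05, was the narrowest of the alpha members and did not reach the change of *Gabrb2*.

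*Gabrd* encodes delta, which takes the place of gamma in receptors outside synapses, and lies on the minus strand of chromosome 4 from 154759089 to 154772221. It had 26.5, 31.4 and 35.1 CPM at the lowest, median and highest in the WT-labelled libraries and 21.3, 32.6 and 38.9 CPM in the KO-labelled ones. As for *Gabra4*, the KO-labelled libraries spread to both sides, with replicates 2 and 3 above and replicate 4 below every WT-labelled library. The log2 fold change was 0.04 (SE 0.12, 95% interval -0.21 to 0.29, edgeR adjusted p = 0.940).

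Ratios of reads between members were taken within each library, where scaling between libraries cancels out. The log2 ratio of *Gabrb2* to *Gabrb1* was 3.78 ± 0.11 (SD, n = 6) in the WT-labelled libraries and 3.76 ± 0.11 in the KO-labelled ones. This was a difference of -0.02 (two-sided exact permutation test, p = 0.760, 0.903 after Benjamini-Hochberg adjustment over 5 ratios). The ratio of *Gabrd* to *Gabra4*, partners in tonic receptors, was -2.24 ± 0.16 and -2.23 ± 0.14, a difference of 0.01 (exact permutation p = 0.903, adjusted 0.903). The ratio of *Gabra4* to *Gabra2* was 0.05 ± 0.14 and 0.27 ± 0.34, a difference of 0.21 (exact permutation p = 0.175, adjusted 0.611). For *Gabra5* to *Gabra2* the difference was 0.16 (exact permutation p = 0.245, adjusted 0.611), and for *Gabra3* to *Gabra2* it was 0.13 (exact permutation p = 0.554, adjusted 0.903). Without *Gadd45a*-KO replicate 6, where *Gabra2* was lowest, these 3 differences were 0.13, 0.052 and -0.011. The smallest p that 6 libraries against 6 allow is 0.00216. None of the 5 ratios differed at an adjusted p under 0.05, and 0 of 5 had an unadjusted exact p under 0.05.

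**Figure D3:**
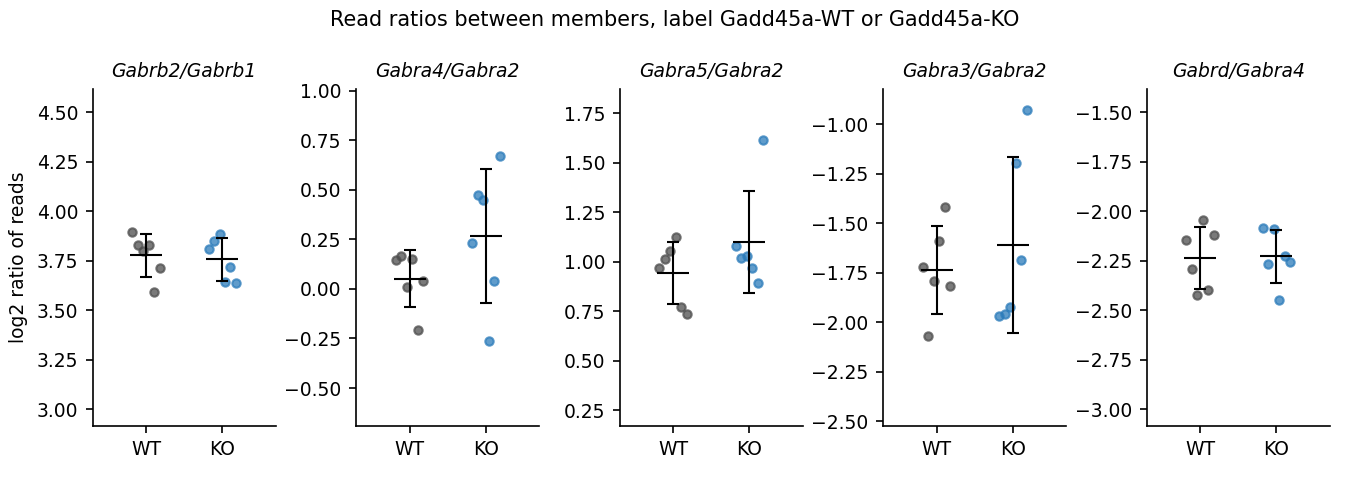
Log2 ratio of the reads of 2 members within each library (y axis, a panel per ratio, each spanning the same number of log2 units), for the 6 libraries labelled WT and the 6 labelled KO, with mean and SD in black. The groups overlap in all 5 panels, and KO replicate 6 stands highest for *Gabra5* to *Gabra2* at 1.61.

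Other subunit genes of the family were compared beside the members. *Gabrg1*, which encodes a gamma subunit, shares the chromosome 5 cluster with *Gabra2*, *Gabra4* and *Gabrb1* and had a log2 fold change of 0.07 (edgeR adjusted p = 0.791). *Gabrg3*, another gamma subunit and a neighbour of *Gabra5* on chromosome 7, had -0.26 (edgeR adjusted p = 0.168). *Gabrr2*, a rho subunit known from the retina, had 0.48 with a standard error of 0.35 (edgeR adjusted p = 0.630), which was 0.097 without *Gadd45a*-KO replicate 3 and 0.0077 with the thalamus markers as a covariate. None of these 3 genes passed 1% FDR in edgeR or DESeq2. *Gabra6*, *Gabre*, *Gabrp*, *Gabrq*, *Gabrr1* and *Gabrr3* did not pass the filter on low counts. Within the chromosome 5 cluster, *Gabrb1* was thus the 1 gene of 4 below 5% FDR.

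**Figure D4:**
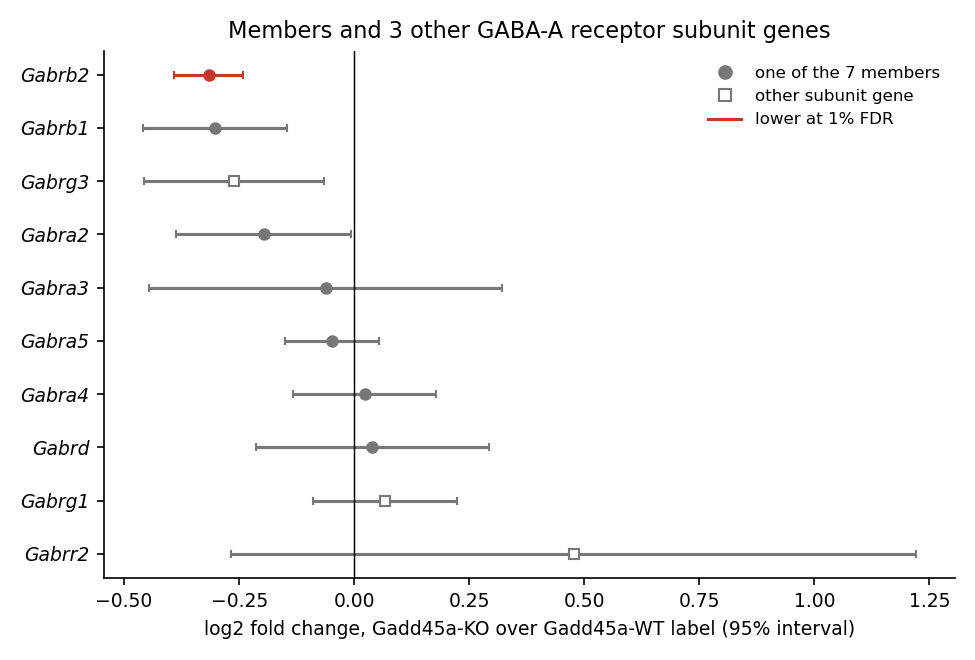
Log2 fold change of the KO-labelled over the WT-labelled libraries (x axis, with the 95% interval from edgeR) for the 7 members, as filled circles, and 3 other subunit genes, as open squares. *Gabrb2* at -0.32, in red, is the gene lower at 1% FDR, and *Gabrb1* at -0.30 has a wider interval.

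Genes that act with the receptor were taken from 7 lists of 58 genes, of which 57 were tested. Of these 57, 2 were lower and 0 higher at 1% FDR in edgeR, where 2.62% of all genes were lower, and DESeq2 gave the same counts. At an unadjusted p under 0.05, 5 were lower and 4 higher, against 9.35% and 4.34% of all genes, and the median log2 fold change was 0.01. The lower genes were *Mdga2*, a membrane protein that restrains neuroligin at synapses, at -0.46 (edgeR adjusted p = 0.00490), and *Kctd16*, an auxiliary subunit of the GABA-B receptor, at -0.53 (edgeR adjusted p = 0.00777). Their levels were low, with means of 1.58 (WT-labelled) and 1.15 CPM (KO-labelled) for *Mdga2* and of 5.41 and 3.76 CPM for *Kctd16*. Without the filter on low counts, *Mdga2* did not pass 1% FDR (edgeR adjusted p = 0.0164). With 1 library left out, *Mdga2* kept its call in 1 of 12 fits, without *Gadd45a*-KO replicate 2. *Kctd16* kept its call in 2 of 12, without *Gadd45a*-WT replicate 1 and without *Gadd45a*-KO replicate 4. The highest adjusted p was 0.0184 for *Mdga2* and 0.0289 for *Kctd16* (edgeR).

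By list, 1 of 16 scaffold and adhesion genes was lower, and *Shisa7*, an auxiliary protein of the receptor, was at -0.14 (edgeR adjusted p = 0.453). Among 6 genes of the GABA-B receptor and its KCTD subunits 1 was lower, and *Kctd8* was at 0.08 (edgeR adjusted p = 0.802). None of the other lists held a gene at 1% FDR in edgeR or DESeq2. Of 5 genes for GABA synthesis, loading and breakdown, 0 had an unadjusted p under 0.05, with *Gad2*, which makes GABA, at -0.08 and *Abat*, which degrades it, at 0.07. Of 4 uptake genes 1 was higher at that p, *Slc6a11*, a GABA transporter of astrocytes, at 0.18. *Slc6a12* was at 0.66 (SE 0.49), with means of only 0.540 (WT-labelled) and 0.847 CPM (KO-labelled). *Slc6a13* was at 0.42, and neither had such a p. Of 15 assembly and trafficking genes 1 was lower and 1 higher at that p, with *Kif21a* at -0.14 and *Kif5a*, a kinesin motor, at 0.15. Of 7 chloride transport genes 1 was lower and 1 higher at that p, the higher being *Car2*, a carbonic anhydrase, at 0.21. Of 4 genes for receptor modulators 1 was higher at that p, *Dbi*, the diazepam binding inhibitor, at 0.14. *Akr1c14* was at 0.23 and *Srd5a1* at 0.16, both enzymes of neurosteroid synthesis, and neither had such a p. *Slc6a11* and *Dbi* were named after their values were seen. The adjusted p of these 11 genes was between 0.190 and 0.639 (edgeR).

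Markers of other cells were compared as well. None of the 57 marker genes tested passed 1% FDR in edgeR or DESeq2. At an unadjusted p under 0.05, 7 of 10 thalamus markers and 5 of 5 oligodendrocyte markers were higher, against 4.34% of all genes. So were 2 of 5 astrocyte markers, 1 of 6 choroid plexus markers and 1 of 4 endothelial markers. In the other lists 0 markers had such a p, although 7 of 7 dentate granule cell markers had a log2 fold change below 0. Summed oligodendrocyte markers were 2180 to 3464 CPM in the WT-labelled libraries and 2817 to 6898 CPM in the KO-labelled ones, with replicate 3 the highest. Interneuron markers, from cells that release GABA, summed to 618 to 694 CPM and 596 to 701 CPM. Microglial markers summed to 195 to 216 and 204 to 232 CPM, astrocyte markers to 1234 to 1564 and 1376 to 1523 CPM, and endothelial markers to 101 to 146 and 123 to 144 CPM. Choroid plexus markers summed to 37.6 to 64.9 and 30.4 to 82.4 CPM, dentate granule cell markers to 476 to 668 and 309.5 to 646 CPM, and CA1 to CA3 markers to 491 to 572 and 384 to 643 CPM.

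Without *Gadd45a*-KO replicates 2 and 3, the libraries highest in thalamus markers, the log2 fold change of *Gabrb2* was -0.33 (edgeR adjusted p = 0.000720). Without replicate 4 as well it was -0.34 (edgeR adjusted p = 0.00253), and with the thalamus markers as a covariate it was -0.33 (edgeR adjusted p = 0.000356). The change of *Gabrb2* was thus as large without these libraries. *Gabrb1* was at -0.27 (edgeR adjusted p = 0.150) without replicates 2 and 3 and at -0.30 (edgeR adjusted p = 0.179) without replicate 4 as well. With the thalamus markers as a covariate it was at -0.25 (edgeR adjusted p = 0.127). It did not pass 5% FDR in these fits, against a log2 fold change of -0.30 with all 12 libraries. The number of genes lower at 1% FDR also fell in them, from 430 to 199, 94 and 243. The part of fewer libraries in this loss was not tested. *Gabra4* and *Gabrd*, which lay highest in replicates 2 and 3, turned to -0.08 and -0.09 without those replicates, with edgeR adjusted p of 0.922 and over 0.99. The part of tissue spread and of cell content in the values of the members was not tested beyond these fits.

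**Figure D5:**
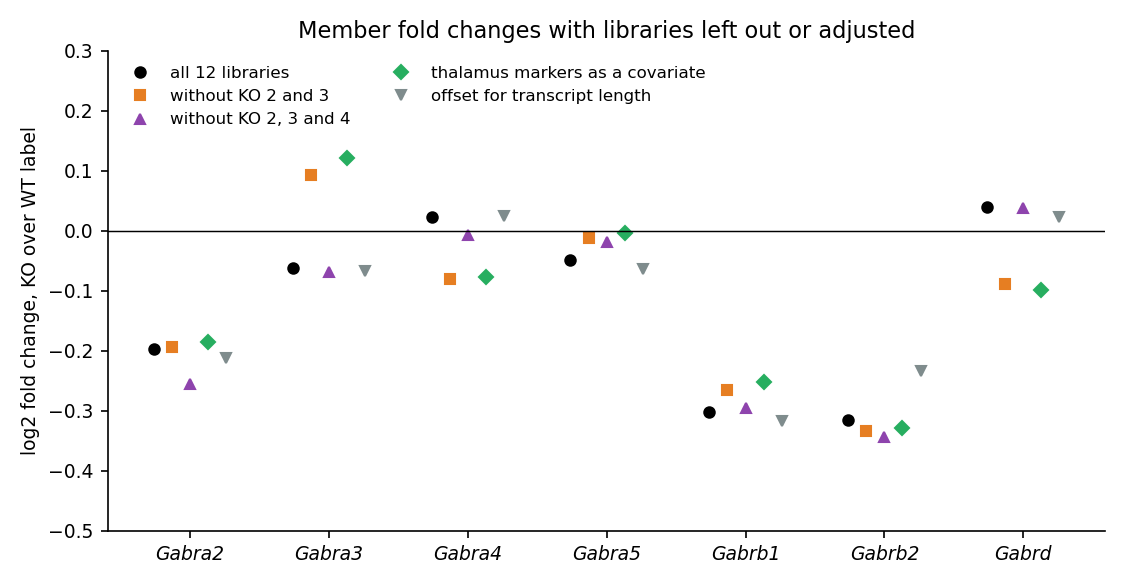
Log2 fold change of each member (y axis) with all 12 libraries, without *Gadd45a*-KO replicates 2 and 3, without replicates 2, 3 and 4, with thalamus markers as a covariate and with an offset for transcript length. *Gabrb2* stays between -0.34 and -0.23 under these 5 settings, and *Gabra3*, *Gabra4* and *Gabrd* change sign.

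After subtracting each label's mean, the members were also compared across the 12 libraries, which share depth and tissue content with them, so that the correlations describe these libraries. *Gabra4* and *Gabrd* varied together (Pearson's r = 0.848), as did *Gabra3* and *Gabrb1* (r = 0.786) and *Gabra2* and *Gabrb2* (r = 0.756). *Gabra3* and *Gabrd* varied in opposite directions (r = -0.708). Among the 16398 other genes tested, those most like *Gabrb2* were *Bcl2*, *Erp44* and *Atxn1l* (r = 0.936, 0.892 and 0.892), and those most like *Gabrb1* were *Ccdc93*, *Mtap2* and *Gm9853* (r = 0.985, 0.943 and 0.937). For *Gabra2* they were *Zdbf2*, *Fam115c* and *Fv1* (r = 0.947, 0.907 and 0.903). Among the genes most like *Gabra3* were *Myh7* and *Ndst3* (r = 0.978 and 0.960). For *Gabra4* they were *Inpp4b*, *Ccnj* and *Cwc15* (r = 0.953, 0.932 and 0.926), and for *Gabra5* they were *Pfn2*, *Calm2* and *Cttn* (r = 0.929, 0.914 and 0.909). *Gabrd* was most like *Tspan15*, *2810011L19Rik* and *Pde7b* (r = 0.951, 0.935 and 0.907). Of these genes, *Mtap2*, which encodes a dendritic microtubule protein, was itself lower at 1% FDR, at -0.33 (edgeR adjusted p = 0.00389), and the others were not called.

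The members also differ in transcript length, which the rule did not use. *Gabrb2* had the longest annotated transcript of the 7, 7665 nt, and a 3′UTR of up to 5702 nt, while *Gabrb1* had 3089 nt and a 3′UTR of 1583 nt. The longest 3′UTR was 1971 nt for *Gabra3*, 1968 nt for *Gabra4*, 920 nt for *Gabra5*, 748 nt for *Gabra2* and 424 nt for *Gabrd*. Over all genes tested, the median was 2996 nt for the transcript and 1068 nt for the 3′UTR. The genes lower at 1% FDR had medians of 6747 nt and 2403 nt. With a smooth offset for transcript length, *Gabrb2* was at -0.23 (edgeR adjusted p = 0.000354) and kept its call. *Gabra5* overlaps the gene *Gm9962* on the other strand, and the authors counted reads by strand.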

How the data were processed

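Poly(A) RNA was sequenced from 12 hippocampi with a stranded kit. Per the labels and the study's methods, the authors aligned reads with TopHat 1.4.1 to NCBIM37 (mm9) and counted them per Ensembl gene with HTSeq 0.5.4p3, and the deposited values are raw read counts per gene without normalization or pooling. Reads with no gene or ambiguous were left out of all library sizes, as were alignments that were not unique. Of the reads on genes, with no gene or ambiguous, those with no gene made up 13.0 to 15.8%, lower under the KO label. The ambiguous ones made up 0.63 to 0.69%. Groups and replicate numbers came from the sample labels. Gene symbols, lengths and positions came from an annotation of the same build (Ensembl 65, an earlier release than the authors'), which matched 37205 of 37991 gene IDs. Promoter windows came from RefSeq.

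Genes were filtered and TMM-scaled with edgeR 4.0.16 (R 4.3.3) and compared with its quasi-likelihood test at 1% FDR without covariates, with standard errors derived from the F statistic. DESeq2 1.42.0, other scaling and filters, 5% FDR, the replicate number as a block, offsets for transcript length or GC content, the thalamus markers as a covariate and leaving out each library were alternatives. Leaving out 2 or 3 libraries that stood apart in marker sums was added after seeing the data. Ratios had 0.5 count added and were compared with exact permutation tests (scipy 1.17.1). The procedure was tested on simulated data. Within each label, no library looked like a second sequencing of another. All 30 same-label pairs exceeded counting error (chi-square per degree of freedom 9.12 to 40.6). This comparison would not detect a second preparation from the same mouse, and it does not cover pairs across the labels. The p-values set the difference between labels against the spread between libraries. With 1 library per mouse, that spread holds differences between mice, dissections and library preparations, which cannot be told apart. Some genes of the family and of the lists are not reported here. Named genes were otherwise the members, the other tested subunits, the genes at 1% FDR of each list (or the 2 with the largest change where fewer than 2 passed) and the 3 genes most like each member. The members and lists were chosen with earlier results of these data known.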

Additional observations from a re-analysis of the deposited data

Results flagged for a closer look

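In 5 of 64 groups of 6 libraries examined, 1 library lay far from the other 5, where 3.2 are expected by chance. *Gabra3* had 62.5 CPM in *Gadd45a*-WT replicate 5, against 31.4 to 42.7 CPM in the other libraries of that label. *Gabrg3* had 19.2 CPM in *Gadd45a*-KO replicate 4, against 13.9 to 15.9 CPM. *Gabrr2* had 1.79 CPM in *Gadd45a*-KO replicate 3, against 0.437 to 0.780 CPM, and *Car2* had 236 CPM in the same library, against 149 to 171 CPM. That library was also the highest in thalamus and oligodendrocyte markers, and their part in both values was not tested. The log2 ratio of *Gabra5* to *Gabra2* was 1.61 in *Gadd45a*-KO replicate 6, against 0.89 to 1.08 in the others, and *Gabra2* was lowest in that library at 93.1 CPM.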

How the results depend on the processing

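The call on *Gabrb2* was kept in all 24 other fits. *Gabrb1*, lower at 5% FDR (log2 fold change -0.30), also passed 1% FDR in DESeq2 at -0.30. *Gabra3* turned to 0.12 with the thalamus covariate and 0.093 without the 2 libraries highest in thalamus markers, *Gabra4* to -0.077 and -0.081 in these and to -0.0070 without *Gadd45a*-KO 4 as well, and *Gabrd* to -0.099, -0.088 and, with GC offset and block, -0.0065. The log2 ratio of *Gabrd* to *Gabra4* turned to -0.032 and -0.015 in the first 2 of these. None of these values passed its threshold. With the longest transcript as length, the share of *Gabrb2* was 13.3% (WT label) and 11.5% (KO label).

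The number of lower genes moved from 430 to 664 (DESeq2), 251 (length offset), 278 (length offset with block), 243 (thalamus covariate), 199 and 94 (without 2 or 3 libraries) and 726 (5% FDR), and that of higher genes from 4 to 20 (DESeq2), 16 (GC offset, with or without block), 2 (thalamus covariate), 2 (without 3 libraries) and 20 (5% FDR). The causes were not tested. Fewer libraries were tested in the fits without 2 or 3. Leaving out 1 library gave 239 to 467 lower genes and log2 fold changes of -0.23 to -0.12 for *Gabra2*, -0.20 to 0.082 for *Gabra3*, -0.015 to 0.092 for *Gabra4* and -0.018 to 0.14 for *Gabrd*. It gave ratio differences of -0.011 to 0.20 (*Gabra3* to *Gabra2*), 0.052 to 0.20 (*Gabra5* to *Gabra2*), 0.13 to 0.32 (*Gabra4* to *Gabra2*), -0.056 to 0.0042 (*Gabrb2* to *Gabrb1*) and -0.027 to 0.054 (*Gabrd* to *Gabra4*). With the replicate block, 509 genes were lower and 5 higher, *Gabrb2* was at -0.32 and *Mdga2* at -0.46 without passing (edgeR adjusted p = 0.0216). Same-numbered libraries correlated at -0.0761 to 0.262, against a mean of -0.0279 for different numbers, and 4 of 12 correlated best with their own number. The numbers were not taken as pairs, since number 6 was at -0.0761 and no label names a shared litter, batch or day. Whether the numbers carry some shared structure was not tested. Depth did not limit the members, whose counting error was below the spread between libraries. That spread left a 95% interval for *Gabra3* that holds a change of the size of *Gabrb2*.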
